A study of Mus musculus with 6 samples.

Results

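The genes described here are the ligands and receptors of the vascular endothelial growth factor (VEGF) family, taken by name from the gene count table. They are the tyrosine kinase receptors Kdr, Flt1 and Flt4, the co-receptors Nrp1 and Nrp2, and the ligands Vegfa, Vegfb, Vegfc and Pgf, 9 of the 37991 genes listed. RNA of samples labelled as bone endothelial cells (BECs) was counted in 3 libraries from female and 3 libraries from male mice, whose strain is c57/Bl6 in the labels and C57BL/6J in the study's methods. All mice were 12 weeks old and carried no label of a transgene or treatment, and the cells were freshly isolated and purified through endomucin, a surface glycoprotein of endothelium. The labels name the tibia as their source, whereas the methods name both tibia and femur. The labels do not say whether each library was a separate animal, so the p-values measure only the spread between these libraries.

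VEGF-A is the main growth factor of blood vessels. It binds the receptor encoded by Kdr, whose kinase passes the signal on to proliferation, migration and permeability, and the receptor encoded by Flt1, which holds the ligand tightly and signals weakly. VEGF-C signals through the product of Flt4 and is best known in lymphatic vessels, while neuropilins present ligands to these receptors. In long bones, VEGF made by cartilage, bone and marrow cells guides vessel growth, and the sinusoids of the marrow carry the products of both Kdr and Flt4.

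All 9 genes have a promoter window in RefSeq, 11 windows in all, and those of the 3 tyrosine kinase receptors are shown because Kdr and Flt4 had the largest fold changes between the sexes in the family and Flt1 one of the smallest. Each window is the 250 bases before an annotated start of the gene on GRCm38.p6, in the direction of the gene. The windows shown are chr5:75978456-75978705 on the minus strand for Kdr, chr11:49609429-49609678 on the plus strand for Flt4 and chr5:147726012-147726261 on the minus strand for Flt1. Capitals mark every match, on either strand, of the 6 motifs searched.
Kdr promoter: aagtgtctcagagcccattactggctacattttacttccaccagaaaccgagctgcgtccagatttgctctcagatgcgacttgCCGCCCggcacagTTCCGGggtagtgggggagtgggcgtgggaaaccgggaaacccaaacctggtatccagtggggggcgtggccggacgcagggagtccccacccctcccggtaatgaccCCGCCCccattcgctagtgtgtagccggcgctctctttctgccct
Flt4 promoter: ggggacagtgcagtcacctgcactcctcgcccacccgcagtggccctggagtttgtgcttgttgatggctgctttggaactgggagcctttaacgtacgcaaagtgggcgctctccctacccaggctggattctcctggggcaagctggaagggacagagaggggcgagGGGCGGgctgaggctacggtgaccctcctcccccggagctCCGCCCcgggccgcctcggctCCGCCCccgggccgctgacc
Flt1 promoter: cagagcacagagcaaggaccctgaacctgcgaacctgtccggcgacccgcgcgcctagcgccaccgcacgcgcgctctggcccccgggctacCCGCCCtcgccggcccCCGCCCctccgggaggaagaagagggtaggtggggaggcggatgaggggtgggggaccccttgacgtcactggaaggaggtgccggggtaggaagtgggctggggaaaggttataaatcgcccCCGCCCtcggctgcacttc
The marked stretch TTCCGG of the Kdr window, 153 bases upstream of the start, is the only match to the ETS core CCGGAA in the 11 windows, whereas 12% of all 32851 windows hold one. The other capitals are the GC box GGGCGG or its reverse CCGCCC, found in 10 of the 11 windows and in 32.7% of all windows. GC content was 61.6% for Kdr, 68.4% for Flt4 and 70.4% for Flt1, against a median of 52.4% over all windows. The GATA core AGATAA occurred in 1 member window, that of Vegfa, and in 9.99% of all windows, and the oestrogen receptor half-site AGGTCA in 2, those of Nrp1 and Vegfb, and in 14% of all. The hypoxia response core ACGTG was found in 1 member window, the other one of Vegfa, and in 16.6% of all. On the minus strand, this Vegfa window, chr17:46025164-46025413, lies downstream of the one with the GATA core, chr17:46032378-46032627. It is therefore not the sequence before the first start of Vegfa. The androgen receptor half-site AGAACA was found in 0 of 11 and in 16.1% of all. No marked matches overlap in the windows printed, and a match describes these letters only.

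Total counts ran from 47678806 to 58325745 in the female and from 49236654 to 50406097 in the male libraries. Values are CPM, the counts of a gene scaled by edgeR to a common library size, and 3 counts, taken as the least a library can show, correspond to 0.0477 to 0.0639 CPM, a limit that covers counting error only. The labelled cell type was checked with 20 endothelial markers. All 20 were present, none at 0 in all libraries, yet together they held 394 to 573 CPM in females and 237 to 361 CPM in males. All 20 had a lower mean in males. At an unadjusted p under 0.05 in edgeR, 14 of the 20 were lower, against 4.76% of all genes tested. With Benjamini-Hochberg adjustment edgeR called 0 of the 20. The 13 neutrophil markers summed to 19149 to 23420 CPM in females and 32578 to 44386 CPM in males, with 12 of 13 higher in males, far above the endothelial sum in every library. By these sums, transcripts of other marrow cells were a larger part of each library than those of endothelium. The 9 macrophage markers were all lower in males, at 2443 to 3277 CPM against 3659 to 4059 CPM. The 9 stromal markers summed to 2981, 1498 and 3113 CPM in females and 1843, 1246 and 2408 CPM in males, and the 6 megakaryocyte markers to 190, 48.7 and 113 CPM and to 77.1, 37.0 and 97.0 CPM. Both lists had a lower mean in males for every gene, with sums that overlapped between the sexes. In bulk RNA, fewer BECs in a sample and less RNA of a gene per BEC cannot be told apart.

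Vegfb was the member with the highest level once counts were divided by the length of all annotated exons, although this order depends on the length used. Its level was 9.05 ± 1.84 CPM per kilobase of annotated exon in females and 8.80 ± 1.49 in males (SD, n = 3 each). The co-receptor Nrp1 followed, at 4.85 ± 0.846 in females and 3.40 ± 0.346 in males, and the gap between Vegfb and Nrp1 exceeded the spread of the libraries in both sexes. Divided by the longest transcript instead, Nrp1 came first in females, at 14.2 ± 2.48 against 11.2 ± 2.27 CPM per kilobase for Vegfb, and second in males, at 9.99 ± 1.02 against 10.8 ± 1.84. In females, Vegfc at 3.24 ± 1.33, Kdr at 2.86 ± 1.23, Flt4 at 2.56 ± 1.08, Vegfa at 1.90 ± 0.466, Nrp2 at 1.64 ± 0.332 and Flt1 at 1.20 ± 0.276 came next, and no neighbours among them were apart by more than their libraries' spread. Pgf was lowest in females, at 0.384 ± 0.167 CPM per kilobase, and all its female libraries lay below those of Flt1. In males the order after Nrp1 was Vegfa at 2.46 ± 0.113, Vegfc at 2.03 ± 0.895, Kdr at 1.08 ± 0.584, Nrp2 at 0.999 ± 0.289, Flt1 at 0.991 ± 0.0859, Flt4 at 0.945 ± 0.574 and Pgf at 0.546 ± 0.196. There, Nrp1 and Vegfa did not overlap, while each later pair of neighbours did. By its mean, Vegfa stood behind Vegfc, Kdr and Flt4 in females and ahead of them in males.

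The comparison of males with females asked whether the family differs with sex at this age. Kdr and Flt4 had the lowest male levels relative to female levels, Nrp1 and Nrp2 were lower to a smaller degree, and Vegfa and Pgf were the only members with higher means in males. At an adjusted p under 0.05, edgeR with Benjamini-Hochberg adjustment called 0 of the 9 members, where it called 8 of 19480 genes, or 0.0411%, with 0.0154% lower in males. DESeq2 also called 0 of the 9, against 2.02% of its genes, with 0.735% lower in males. A replicate block in edgeR, for numbers that did not pair the libraries, called Kdr, Flt4, Nrp1 and Nrp2, 4 of the 9, all lower in males, against 2.20% of all genes and 1.06% lower in males. Without adjustment, 4 of the 9 had a p under 0.05 in edgeR, and the same number did in DESeq2, whose share over all genes was not computed. In edgeR these were Kdr, Flt4, Nrp1 and Nrp2, all 4 lower in males, against 9.79% of all genes in either direction and 4.76% lower in males. No overlap between the sexes was seen in 3 of the 9 members, against 14.5% of all genes. Nrp1 and Nrp2 were lower in every male library, a pattern of 7.29% of all genes, and Vegfa was higher in every male library, a pattern of 7.25%. The median log2 fold change, males over females, was -0.51 over the members and -0.0012 over all genes tested. A neutrophil score as covariate, which itself separates the sexes, turned Kdr to 1.51, Flt4 to 2.10 and Nrp2 to 1.06. Sex and that score cannot be told apart here.

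**Figure D1:**
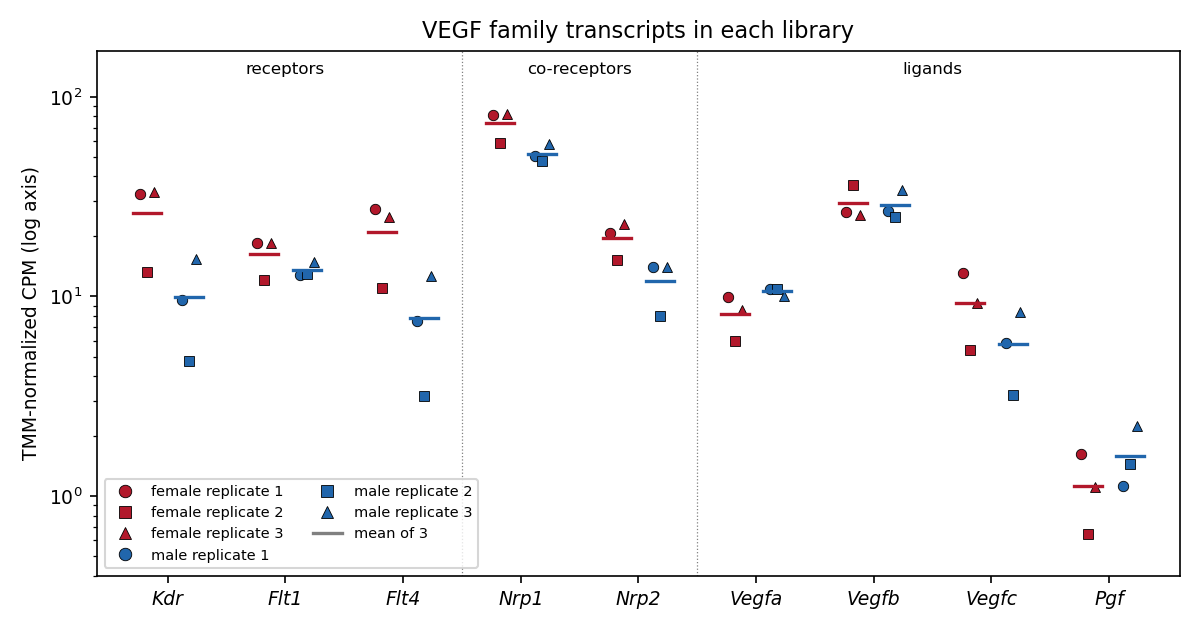
TMM-normalized CPM of the 9 VEGF family members in each library on a log axis, 3 female and 3 male, with the mean of each sex as a bar. Kdr ran from 13.2 to 33.2 CPM in females and from 4.75 to 15.5 CPM in males, while Vegfb overlapped widely between the sexes.

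**Figure D2:**
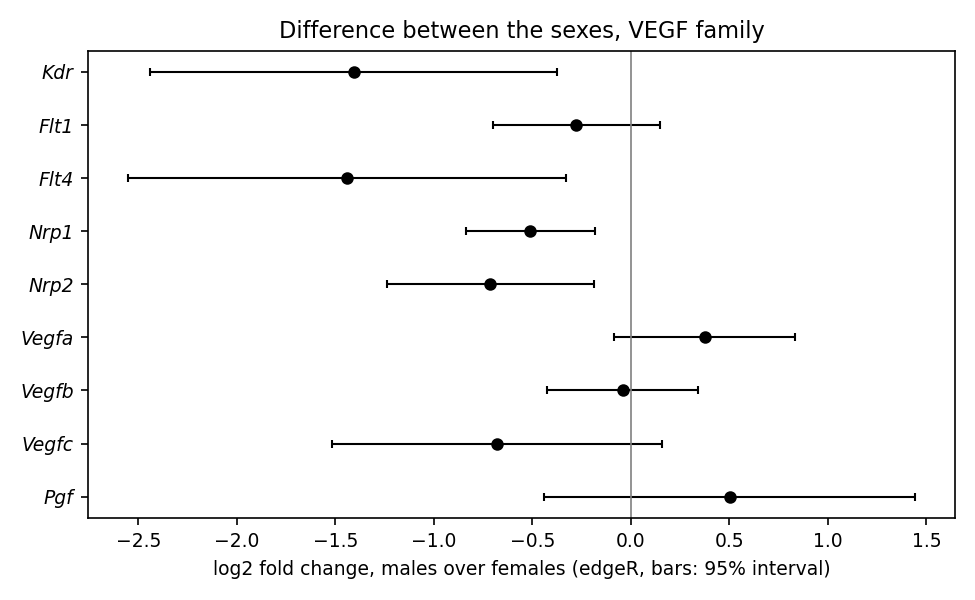
Log2 fold change of males over females for each member from edgeR, with its 95% confidence interval as a bar and a vertical line at no difference. The intervals of Kdr, Flt4, Nrp1 and Nrp2 lie below 0 before adjustment for the number of genes tested.

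Kdr (ENSMUSG00000062960, minus strand of chr5:76093487-76139884 on GRCm39) encodes VEGFR2, the main signalling receptor for VEGF-A on blood vessels. Its level was 32.5, 13.2 and 33.2 CPM in female replicates 1 to 3. It was 9.55, 4.75 and 15.5 CPM in male replicates 1 to 3. Female replicates 1 and 3 lay above every male library, whereas female replicate 2 lay below male replicate 3, so the sexes overlapped. The endothelial and stromal sums were likewise lowest in replicate 2 of each sex and highest in female replicates 1 and 3. The endothelial sum was 551, 394 and 573 CPM in females and 313, 237 and 361 CPM in males. Most of the stromal sum was Cxcl12, at 2214, 1090 and 2350 CPM in females and 1352, 928 and 1924 CPM in males. The part of either cell type in the values of Kdr, Flt4 and Vegfc was not tested. The mean of Kdr was 26.3 ± 11.3 CPM in females and 9.92 ± 5.37 CPM in males (SD, n = 3 each). The log2 fold change was -1.41 with a standard error of 0.453, a 95% interval from -2.44 to -0.37, and an edgeR Benjamini-Hochberg adjusted p of 0.356. Counts behind these values ran from 234 to 2042 per library, far above the least a library can show.

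Flt4 (ENSMUSG00000020357, plus strand of chr11:49500090-49543582) encodes VEGFR3, the receptor for VEGF-C. It was measured at 27.5, 10.97 and 25.0 CPM in the female libraries. In the male libraries it was at 7.54, 3.19 and 12.6 CPM. The libraries kept the order seen for Kdr in males, and female replicate 2 again lay below male replicate 3. Males over females, the log2 fold change was -1.44 with a standard error of 0.488, a 95% interval from -2.55 to -0.33 and an edgeR Benjamini-Hochberg adjusted p of 0.383. Because Flt4 also marks lymphatic endothelium, Prox1, the transcription factor that defines lymphatic cells, was read beside it. Prox1 ran from 0.151 to 0.426 CPM in females and from 0.0843 to 0.190 CPM in males, under the filter of the test. The lymphatic markers found in the table, 4 of 5, summed to 17.1 to 30.3 CPM in females and 11.9 to 22.9 CPM in males, most of it Reln. An annotated antisense long noncoding RNA shares exon sequence with Flt4, and whether reads were counted by strand is not stated. The study's own primers for Flt4 transcripts, CCATCTCAACGTGGTCAACC in exon 19 (chr11:49527553-49527572) and AAGTTGGAGAGGTTGCCGTA in exon 20 (chr11:49527842-49527861), lie in coding sequence and span 99 bases of the transcript.

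Flt1 (ENSMUSG00000029648, minus strand of chr5:147498414-147662826) encodes VEGFR1, which binds VEGF-A, VEGF-B and PlGF, exists in a soluble form and is also made by monocytes. Its level was 18.5, 12.0 and 18.6 CPM in females. It was 12.7, 13.0 and 14.9 CPM in males. Female replicate 2 held the lowest value of all 6 libraries, and the males lay between it and the other females. The log2 fold change was -0.28 with a standard error of 0.190, a 95% interval from -0.70 to 0.15 and an edgeR Benjamini-Hochberg adjusted p of 0.683. The study's primers for Flt1, TGTCTATAGGTGCCGAGCCA in exon 15 (chr5:147551987-147552006) and GCTCCAGGTTTGACTTGTCTG in exon 16 (chr5:147540410-147540430) of 30, lie in coding sequence, so the counts of the whole gene cover more of it than the 95 bases they span.

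Nrp1 (ENSMUSG00000025810, plus strand of chr8:129085085-129231082) encodes neuropilin 1, a co-receptor for VEGF-A and class 3 semaphorins that is found on endothelial, neural and some immune cells. It was the most counted member, at 80.7, 59.0 and 81.9 CPM in females. In males it was at 50.5, 47.4 and 57.7 CPM. Every male library lay below every female library, although male replicate 3 and female replicate 2 were close. Its log2 fold change was -0.51 with a standard error of 0.148, a 95% interval from -0.84 to -0.18 and an edgeR Benjamini-Hochberg adjusted p of 0.284, and the DESeq2 adjusted p was 0.0999. A microRNA gene and a pair of antisense long noncoding RNAs share exon sequence with it. The study's forward primer for Nrp1, TTGACCTGGAGCAAGACTCG, lies in exon 4 (chr8:129152367-129152386) in coding sequence, and with the reverse primer ATGTGAGGGCCAACTTCAGG, across the next junction, it spans 97 bases.

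Nrp2 (ENSMUSG00000025969, plus strand of chr1:62742444-62857854) encodes neuropilin 2, a co-receptor for VEGF-C and semaphorins on veins and lymphatic vessels. Its level was 20.9, 15.2 and 23.0 CPM in females. It was 14.0, 7.997 and 14.0 CPM in males. The sexes did not overlap, and male replicate 2 was well below the other two male libraries. In edgeR, the log2 fold change was -0.71 with a standard error of 0.237, a 95% interval from -1.24 to -0.19 and an edgeR Benjamini-Hochberg adjusted p of 0.353. An antisense long noncoding RNA is annotated over exon sequence of Nrp2, and 1 each over Vegfa and Vegfc, with the same limit as for Flt4.

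Vegfa (ENSMUSG00000023951, minus strand of chr17:46327919-46343309) encodes VEGF-A itself, which many cell types make under low oxygen. It was measured at 9.91, 5.98 and 8.61 CPM in females. In males it was at 10.9, 10.8 and 10.04 CPM. The male libraries lay close together and above every female library, with male replicate 3 only just above female replicate 1. Males over females, the log2 fold change was 0.38 with a standard error of 0.207, a 95% interval from -0.08 to 0.84 and an edgeR Benjamini-Hochberg adjusted p of 0.597.

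Vegfb (ENSMUSG00000024962, minus strand of chr19:6958447-6965127) encodes VEGF-B, a ligand of VEGFR1 linked to fatty acid handling of the endothelium. Its level was 26.4, 36.4 and 25.6 CPM in females. It was 26.7, 25.0 and 34.2 CPM in males. One library of each sex, female replicate 2 and male replicate 3, was above the rest, and the sexes overlapped throughout. Its log2 fold change was -0.04 with a standard error of 0.173, a 95% interval from -0.43 to 0.34 and an edgeR Benjamini-Hochberg adjusted p of 0.960, and this interval is among the narrowest of the family.

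Vegfc (ENSMUSG00000031520, plus strand of chr8:54530257-54640131) encodes VEGF-C, the ligand of VEGFR3. It was measured at 13.0, 5.41 and 9.31 CPM in females. In males it was at 5.85, 3.21 and 8.33 CPM. Female replicate 2 lay below male replicates 1 and 3, so the sexes overlapped. In edgeR, the log2 fold change was -0.68 with a standard error of 0.376, a 95% interval from -1.51 to 0.16 and an edgeR Benjamini-Hochberg adjusted p of 0.597.

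Pgf (ENSMUSG00000004791, minus strand of chr12:85213409-85224564) encodes PlGF, placental growth factor, a ligand of VEGFR1 that does not bind VEGFR2 or VEGFR3. It had the fewest counts of the family, from 34 to 106 per library, which correspond to 1.62, 0.643 and 1.11 CPM in females. It was at 1.12, 1.44 and 2.23 CPM in males. The sexes overlapped, with male replicate 3 highest and female replicate 2 lowest. The log2 fold change was 0.50 with a standard error of 0.425, a 95% interval from -0.44 to 1.44 and an edgeR Benjamini-Hochberg adjusted p of 0.748. Vegfd, the other VEGFR3 ligand, was too low to be tested, with 1 to 11 counts per library.

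The members differed in how far they varied over the 6 libraries. The coefficient of variation of the CPM was 67.1% for Flt4 and 66.1% for Kdr, then 46.1% for Vegfc and 39.9% for Pgf. It was 33.9% for Nrp2, 23.7% for Nrp1, 19.9% for Vegfa, 19.7% for Flt1 and 16.9% for Vegfb. These values include the difference between the sexes. Within females alone, Pgf at 43.6%, Kdr at 43.0%, Flt4 at 42.1% and Vegfc at 41.2% varied about alike, and the other members lay from 17.5% for Nrp1 to 24.5% for Vegfa. Within males alone, Flt4 at 60.8% and Kdr at 54.1% varied most, and Vegfa at 4.60% and Flt1 at 8.67% least.

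The patterns were compared as log2 CPM centred on each gene's mean, with the root-mean-square difference over the 6 libraries as the measure of likeness. Kdr and Flt4 were each other's nearest among the protein-coding genes with a mean of at least 1 CPM, at a difference of 0.112, although their own spread was 0.979 and 1.05. This measure includes the difference between the sexes. With each sex centred on its own mean, the difference was 0.102, at which Kdr stayed the nearest gene to Flt4 but Flt4 was the seventh nearest to Kdr, behind Plvap at 0.0965 among others. Centred in this way, Flt1 and Nrp1 were the members most alike, at 0.0651. The second neighbour of Kdr was Prelp, a matrix proteoglycan, at 0.117, and the second neighbour of Flt4 was Cyp4b1, a cytochrome P450, at 0.157. Of the endothelial genes, Tek, the angiopoietin receptor, was at 0.149 from Kdr, the surface protein gene Mmrn2 at 0.153, the fenestral diaphragm gene Plvap at 0.164 and Cdh5, encoding VE-cadherin, at 0.201. By distance from Kdr, these held ranks 5, 6, 9 and 11 of 12676 genes. Cldn5 at 0.227, Clec14a at 0.229, Ptprb at 0.242, Eng at 0.253, Robo4 at 0.272, Ecscr at 0.344, Esam at 0.353, Egfl7 at 0.385 and Emcn at 0.403 held ranks from 16 to 89. Sox18 at 0.438 held rank 124, Stab2 at 0.653 rank 527, Tie1 at 0.665 rank 560 and Vwf at 0.735 rank 834. Pecam1 at 0.931 and Erg at 0.934 were the most distant, at ranks 3797 and 3901. The centred patterns of the members show Kdr, Flt4 and Vegfc low in male replicate 2 and low in female replicate 2 relative to the other females.

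**Figure D3:**
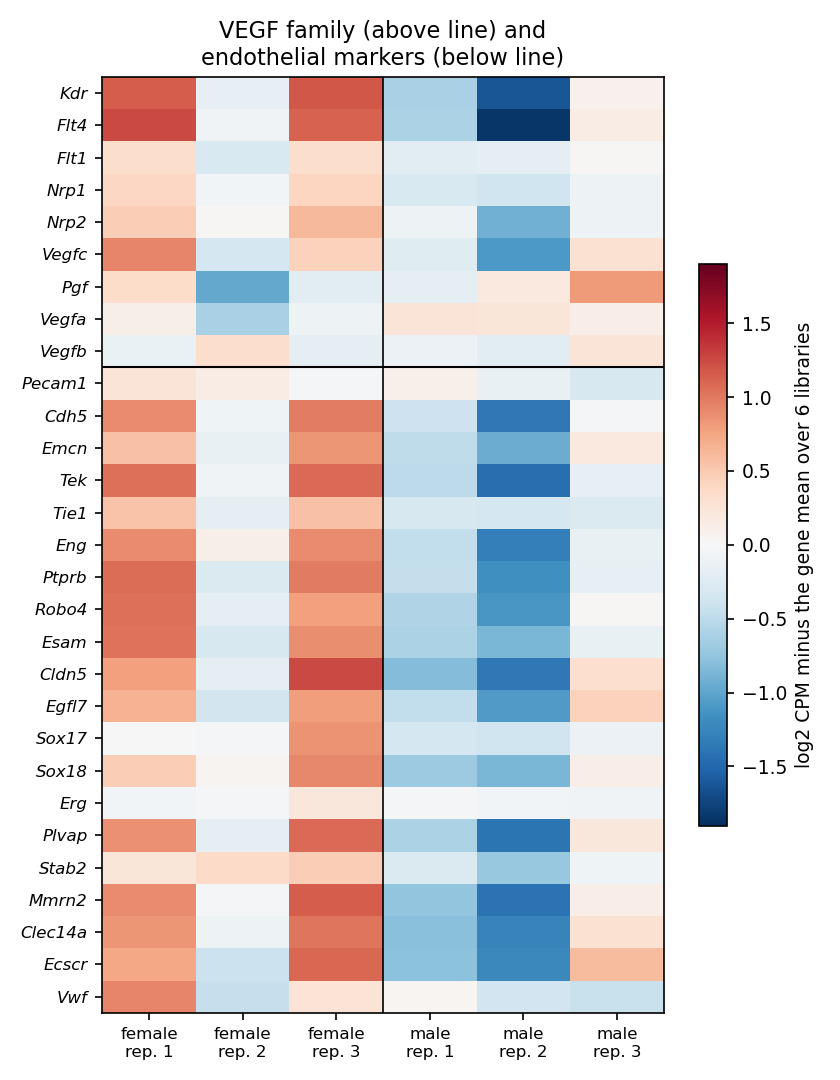
Gene-centred log2 CPM of the 9 members and of endothelial genes in the 6 libraries, female replicates 1 to 3 and then male replicates 1 to 3. Kdr and Flt4, at a root-mean-square difference of 0.112, resemble most endothelial markers shown, with Pecam1 and Erg the most distant from Kdr, and Vegfb has the flattest profile of the members.

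Nearest to Flt1 were Chpf, at 0.0630, and Lratd2, at 0.0797, and Nrp1 was nearest to Slc12a2, a chloride cotransporter gene, at 0.0422 and to Hmgn3 at 0.0492. Nrp2 was nearest to Rusc2, at 0.0833, and to Kank2, at 0.0977. For the ligands, Vegfa was nearest to Bbs1 at 0.0536 and Neurl1b at 0.0764, Vegfb to Rabac1 at 0.0568 and Tmem219 at 0.0582, and Vegfc to the ferroxidase gene Heph at 0.0837 and to Gpr176 at 0.102. Pgf had no close neighbour, with Fign at 0.186 and Zfp457 at 0.208. None of these 7 members had another member or an endothelial marker among its nearest pair, and small differences are easier to reach for genes that vary little.

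Receptor counts were also set against endothelial transcripts of the same library, first the sum of the 20 endothelial markers. Stab2 and Pecam1 were the largest parts of that sum, with means of 115 and 92.2 CPM in females and 71.3 and 78.6 CPM in males. Their log2 fold changes of -0.69 and -0.23 were nearer to 0 than the median of -1.02 over the 20 markers. Per 100 counts of the 20 endothelial markers, which hold no member, Kdr had 5.90, 3.36 and 5.79 counts in females. In males it had 3.05, 2.00 and 4.29. The sexes overlapped, the log2 ratio of males to females was -0.71, against -1.41 for the CPM, and an exact two-sided permutation test gave p = 0.2, where 3 against 3 libraries cannot go below 0.1. Flt4 had a log2 ratio of -0.81, from 4.99, 2.78 and 4.36 in females and 2.41, 1.34 and 3.51 in males, with an exact permutation p of 0.2. With 1 library left out, the log2 ratio ran from -0.98 to -0.43 for Kdr and from -1.13 to -0.43 for Flt4, nearest to 0 without male replicate 2 for both.

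On this scale the denominator in males was 0.600 times that in females, without overlap, so a gene of equal CPM has a positive log2 ratio. Vegfb, at a log2 fold change of -0.04 for the CPM, was at 0.70. Of the 9 members, 5 had a positive log2 ratio of at least 0.24 and Vegfc was at 0.05. The share of all genes with such ratios was not computed. Flt1 had 3.37, 3.05 and 3.24 counts per 100 endothelial counts in females and 4.07, 5.48 and 4.13 in males. The sexes did not overlap, and the log2 ratio was 0.49 with the smallest exact permutation p possible, 0.1. Nrp1 had 14.7, 15.0 and 14.3 in females and 16.1, 20.01 and 16.0 in males, again without overlap, with a log2 ratio of 0.24, or 0.13 without male replicate 2, and an exact permutation p of 0.1. Of the ligands, Pgf had a log2 ratio of 1.29 and Vegfa of 1.15, both without overlap and with an exact permutation p of 0.1, and Vegfb had a log2 ratio of 0.70 with overlap and an exact permutation p of 0.2. Nrp2 was at 3.79, 3.87 and 4.01 in females and 4.47, 3.37 and 3.89 in males, with a log2 ratio of -0.000050 and an exact permutation p of 1. The neutrophil, erythroid and macrophage markers also moved with sex, and their part in the levels of Flt1, the neuropilins and the ligands was not tested. Erythroid markers summed to 12338 to 17748 CPM in females and 18658 to 27450 CPM in males. The ratio was computed for all 9 members, and with Benjamini-Hochberg adjustment over them the exact permutation p was 0.257 for Kdr and Flt4, 0.225 for Flt1, Nrp1, Vegfa and Pgf, 0.257 for Vegfb and 1 for Nrp2 and Vegfc.

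**Figure D4:**
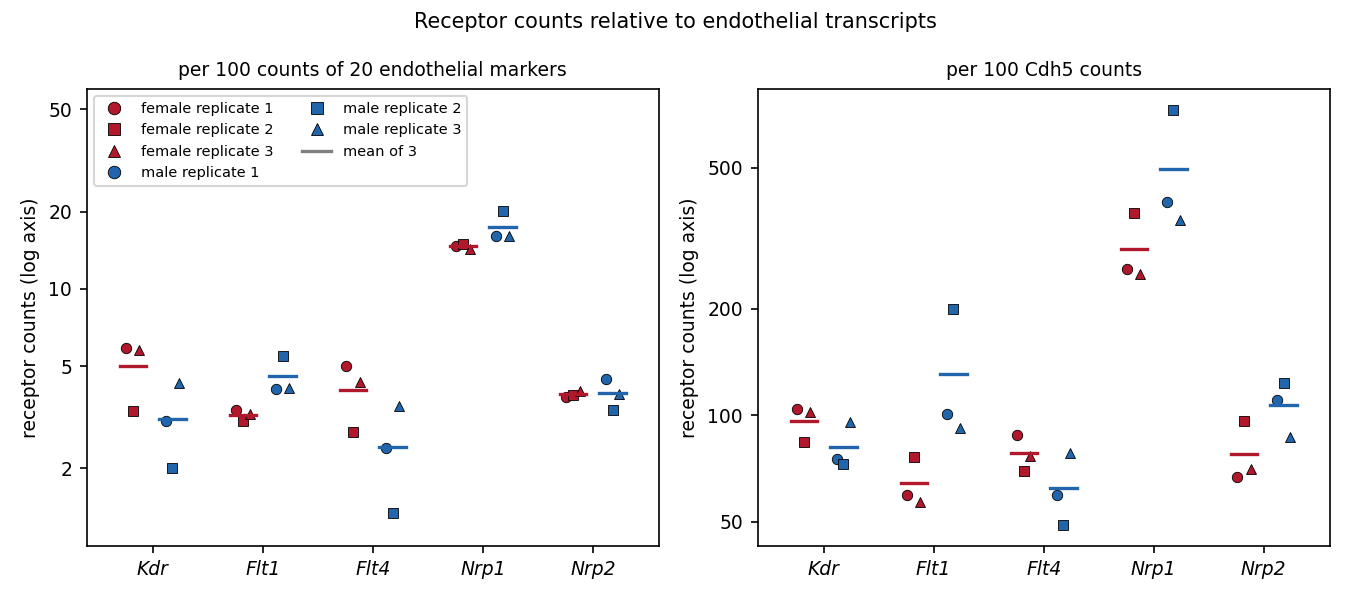
Counts of the 5 receptors and co-receptors per 100 counts of the 20 endothelial markers, left, and per 100 Cdh5 counts, right, in each library on a log axis, with bars at the mean of 3 libraries. Kdr and Flt4 are lower on average in males on both scales, while Flt1 is higher in every male library on both.

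The denominator mattered for these ratios. Against Emcn, whose product was used for the purification, Kdr had 374, 247 and 315 counts per 100 Emcn counts in females and 227, 154 and 230 in males, without overlap. The log2 ratio was -0.62 for Kdr and -0.72 for Flt4, which did not overlap either, each with an exact permutation p of 0.1, or 0.225 adjusted over the 9 members by Benjamini-Hochberg. Flt1 against Emcn was at 0.58, with overlap and an exact permutation p of 0.2. Against Cdh5 alone, Kdr had 104, 83.9 and 102 counts per 100 Cdh5 counts in females and 75.5, 73.1 and 95.8 in males. The log2 ratio was -0.25 for Kdr and -0.35 for Flt4, both with overlap, at exact permutation p of 0.2 and 0.3. Flt1 had 59.4, 76.3 and 57.1 in females and 101, 200 and 92.2 in males, a log2 ratio of 0.95. Against Pecam1, the log2 ratios were -1.21 for Kdr, -1.31 for Flt4 and -0.015 for Flt1, and Nrp1 was lower in males at -0.26. Kdr and Flt4 overlapped between the sexes there, each with an exact permutation p of 0.2. Pecam1 itself had a log2 fold change of -0.23, Cdh5 of -1.17 and Emcn of -0.81, at edgeR Benjamini-Hochberg adjusted p of 0.614, 0.336 and 0.450. The lower mean of Kdr and Flt4 in males held for every denominator tried, whereas the directions of Flt1, Nrp1 and Nrp2 changed with it.

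As a share of the family's CPM per kilobase, the tyrosine kinase receptors made up 26.7%, 15.6% and 27.8% in females. They made up 14.0%, 10.6% and 16.7% in males, where replicate 3 reached above female replicate 2. The ligands made up 50.5%, 62.5% and 46.9% in females and 64.1%, 67.7% and 64.1% in males, and all male libraries lay above all female libraries. Vegfb alone gave 26.4% to 47.6% in females and 40.0% to 44.0% in males. Nrp1 gave 16.5% to 18.7% in females and 14.7% to 17.8% in males, so its share overlapped between the sexes. The shares depend on the length used, here that of all annotated exons, and were not computed with the longest transcript. The annotated exons and the longest transcript hold 15.24 and 5.19 kilobases for Nrp1, but 2.86 and 2.86 for Vegfc.

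The rest of the pathway was read from 6 lists of 119 genes, of which 115 could be tested. edgeR with Benjamini-Hochberg adjustment called 0 of the 115, and DESeq2 called 6, against 2.02% of all genes. At an unadjusted p under 0.05 in edgeR, 20 were lower and 5 were higher in males, against 4.76% and 5.03% of all genes. The counts by list follow, each to be read against the same shares, with examples given as values.

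Of the 43 genes of VEGF receptor signalling, 5 were lower and 3 higher at an unadjusted p under 0.05 in edgeR, and the median log2 fold change was -0.03. Src, a kinase that acts in permeability, had a log2 fold change of -0.62 and an edgeR adjusted p of 0.308. Ptk2, encoding focal adhesion kinase, was also at -0.62 with an edgeR adjusted p of 0.308, and the Src family kinase gene Fyn was at -0.35. Pxn, encoding the focal adhesion protein paxillin, was at 0.33 with an edgeR adjusted p of 0.351. Below 0 lay 27 of the 43.

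Among the regulators of the receptors and ligands, all 18 of the 19 that could be tested had a log2 fold change below 0, with a median of -0.31, where 9781 of 19480 genes lay below 0, and 6 had an unadjusted p under 0.05 in edgeR. Ptprb, the endothelial phosphatase VE-PTP, was at -1.24 with an edgeR adjusted p of 0.288, and Adamts1, a protease that binds VEGF-A, was at -1.32 with an edgeR adjusted p of 0.326. Cdh5 was at -1.17, and Dab2, an adaptor of receptor endocytosis, was at -0.54 with an edgeR adjusted p of 0.374. DESeq2 called Ptprb, Cdh5 and Adamts1, 3 of this list. Ptprb, Cdh5 and Emcn are themselves among the 20 endothelial markers.

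Among the partners of neuropilins, 12 of 13 could be tested, 2 were lower at an unadjusted p under 0.05 in edgeR and the median log2 fold change was -0.20. The plexin receptor genes Plxna1 and Plxnd1 were at -0.45 and -0.46, with edgeR adjusted p of 0.412 and 0.454, and Plxna4 was at -0.75. Sema3f, a ligand of neuropilin 2, was at -0.70.

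Of 14 genes known to respond to VEGF in endothelium, 5 were lower and 1 was higher at an unadjusted p under 0.05 in edgeR, with a median of -0.22. Esm1, the tip cell gene for endocan, was at 142, 65.5 and 130 CPM in females and at 44.4, 25.7 and 77.2 CPM in males. Its order of libraries was close to that of Kdr, with male replicate 3 above female replicate 2, and its log2 fold change was -1.196 with an edgeR adjusted p of 0.387. Dll4, the Notch ligand of tip cells, was at -1.34 with an edgeR adjusted p of 0.259, Plvap, also 1 of the 20 endothelial markers, at -1.13 and Icam1, a leukocyte adhesion molecule gene, at -0.30. F3, encoding tissue factor, was at 2.30 with an edgeR adjusted p of 0.253, at under 1 CPM in all libraries.

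Of the transcription factors of VEGF receptor genes, 14 of 16 could be tested and 1 was lower at an unadjusted p under 0.05 in edgeR. This was Sox18, a vascular SOX factor, at a log2 fold change of -0.93 with an edgeR adjusted p of 0.326. The list's median was -0.11, with 11 of 14 below 0. Sox18, Sox17 and Erg of this list are also among the 20 endothelial markers, all of which had a lower mean in males.

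Epas1, which encodes the hypoxia-inducible factor HIF-2α and is abundant in endothelium, had the smallest p among the 14 regulators of Vegfa transcription. It was at 98.1, 67.5 and 101 CPM in females. It was at 40.7, 39.3 and 54.9 CPM in males, without overlap. The log2 fold change was -0.98 with a standard error of 0.182 and an edgeR Benjamini-Hochberg adjusted p of 0.0859, and DESeq2 gave an adjusted p of 0.00014. Vegfa was at 0.38 with an edgeR adjusted p of 0.597, and a link between Epas1 and Vegfa was not tested. Egln3, encoding an oxygen-sensing hydroxylase, was at 0.67 with an edgeR adjusted p of 0.393. The median of this list was 0.03.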

How the data were processed

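RNA of samples labelled as BECs was sequenced in 6 libraries, 3 per sex. The authors deposited whole-number counts per gene, made with featureCounts, without normalization. The submitters' processing notes name TopHat2 2.0.11 and mm9 (NCBIM37), whereas the paper's methods name STAR and GRCm39. The annotation release and the use of strand are not given in the sources used here. Reads shared between overlapping genes could be lost or misassigned by such counting.

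Identifiers were matched to GENCODE M39 on GRCm39 (31073 of 37991, holding 96.2% of the counts). Males were compared with females in edgeR 4.0.16 (R 4.3.3) with TMM normalization, the default filter by sex, robust quasi-likelihood tests, two-sided, and Benjamini-Hochberg adjustment over 19480 genes. The scripts were tested on simulated data. Patterns used log2 CPM with 0.5 added to each count. Total counts were 47678806 to 58325745 per library. Levels used the union of annotated exons. Receptor ratios were tested by an exact two-sided permutation test.

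Named were the members, up to 4 genes per list with the smallest p, up to 4 per list called with the replicate block, and the 2 genes nearest to each member. Members, lists and markers were chosen with earlier results of these data known. Alternatives were other normalizations, filters, denominators and lengths, DESeq2 1.42.0, a replicate block, a neutrophil covariate and leaving out each library.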

Additional observations from a re-analysis of the deposited data

How the results depend on the processing

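The directions of the CPM fold changes of Nrp1, Vegfa and Pgf held under every alternative fit, though that of Nrp1 came near 0 in one, and 0 of the 9 members passed an adjusted p of 0.05 when any library was left out. The pairing check found correlations of 0.178, 0.0296 and 0.276 between same-numbered libraries, and the libraries numbered 2 correlated better with number 1 of the other sex, so the numbers were not taken as pairs. With the replicate block, edgeR called 428 genes in place of 8 (2.20%, and 1.06% lower in males), 4 members among them: Kdr at -1.45, Flt4 at -1.54, Nrp1 at -0.50 and Nrp2 at -0.74, with adjusted p of 0.000726, 0.00146, 0.0356 and 0.0225. The block also called 1 gene of receptor signalling (Ptk2), 3 regulators (Cdh5, Ptprb and Adamts1), 2 responsive genes (Plvap and Esm1), 1 transcription factor (Sox18) and 1 Vegfa regulator (Epas1). DESeq2 with the block, chosen after seeing the data, called 722 genes, Kdr at -1.44, Flt4 at -1.54, Nrp1 at -0.50 and Nrp2 at -0.73, and 2, 6, 2, 3, 1 and 1 genes of the lists in the order of the report. DESeq2 without the block called 354 genes, and 3 regulators, 1 responsive gene, 1 transcription factor and 1 Vegfa regulator. The neutrophil score as covariate, which itself separates the sexes, left 0 genes called and reversed Kdr (1.51), Flt1 (0.00263), Flt4 (2.10), Nrp2 (1.06), Vegfb (0.13) and Vegfc (2.13), with Nrp1 at -0.06, Vegfa at 0.69 and Pgf at 1.10, so sex and that score cannot be told apart here. Total counts alone called 14 genes, protein-coding genes alone 78 and no filter 98, with 1 Vegfa regulator; the cause was not tested. Leaving out a library gave between 5 genes (without female replicate 2) and 96 (without male replicate 3), with 0 to 1 Vegfa regulators, and log2 fold changes of -1.88 to -1.07 for Kdr, -0.46 to -0.17 for Flt1, -1.98 to -1.07 for Flt4, -0.65 to -0.43 for Nrp1, -0.87 to -0.49 for Nrp2, 0.19 to 0.55 for Vegfa, -1.03 to -0.34 for Vegfc and 0.18 to 0.88 for Pgf. Vegfb ranged from -0.19 to 0.14 and changed sign without female replicate 2 (0.14), male replicate 1 (0.00334) or male replicate 2 (0.05). The ratios moved with the denominator: against Pecam1 to -0.015 (Flt1), -0.26 (Nrp1) and -0.50 (Nrp2), against Cdh5 to 0.95, 0.70 and 0.46; leaving out a library gave 0.35 to 0.56 for Flt1, 0.13 to 0.30 for Nrp1 and -0.10 to 0.10 for Nrp2. Dividing by the longest transcript gave means of 2.17 (Flt1), 12.1 (Nrp1), 2.28 (Nrp2), 2.65 (Vegfa), 10.999 (Vegfb) and 0.655 (Pgf) CPM per kilobase over the 6 libraries, with Nrp1 above Vegfb in females alone. Pgf had the fewest counts, from 34 to 106 per library.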

Other observations

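Ratios within the family, from CPM per kilobase, are given as values. Vegfa per Kdr was 0.653, 0.966 and 0.555 in the female libraries. It was 2.45, 4.88 and 1.39 in the male libraries, all above the females. Vegfc per Vegfa was 1.98, 1.36 and 1.63 in females and 0.805, 0.445 and 1.25 in males, all below the females. Flt1 per Kdr was 0.384, 0.612 and 0.377 in females and 0.898, 1.84 and 0.648 in males. For each of these 3 ratios the exact two-sided permutation p was 0.1, the smallest that 3 against 3 libraries can give, and 0.3 after Benjamini-Hochberg adjustment over the 9 ratios computed. Flt4 per Kdr, by contrast, was 0.944, 0.924 and 0.838 in females and 0.880, 0.748 and 0.912 in males, with an exact permutation p of 0.5, and the sexes overlapped.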
